A study of Mus musculus with 6 samples.

Results

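This account covers 9 genes of the YAP and TEAD pathway in mouse kidney after ischemia-reperfusion injury: Ankrd1, Ccn1, Ccn2, Amotl2, Lats2, Axl, Yap1, Wwtr1 and Tead1. They were taken by gene symbol out of 18193 genes with a probe set of their own on an Affymetrix array, and 9 of 9 passed the filter on dim genes, which left 12734 to test. Each gene was read from the probe set with its highest mean intensity over the arrays.

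RNA came from 6 kidneys or kidney pools, with 1 array for each combination of clamp time (0, 45 or 60 min) and collection day (day 1 or day 3 after release). The vessels of 1 kidney were clamped in FVB/N males aged 6 to 8 weeks that weighed 22 to 26 g, so the other kidney stayed unclamped, and the 0 min animals went through the same anesthesia with pentobarbital and the same flank incision. The number of animals behind an array is not given in the sources used here. The series concerns blockade of the cytokine TNF, and TNF-blocked kidneys are not analysed here.

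YAP and its relative TAZ (the products of Yap1 and Wwtr1) are coactivators that bind no DNA themselves and act through TEAD proteins, which do. The kinases of the Hippo pathway, among them LATS2, phosphorylate YAP and TAZ and hold them in the cytoplasm, and stretch, loss of cell contacts and a stiff matrix let them into the nucleus. In kidney, YAP and TAZ are known from tubule repair and from fibrosis. Because their activity is set largely by phosphorylation and place in the cell, the RNA level of Yap1 or Wwtr1 does not measure it, and the RNA of target genes is commonly read in its stead.

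TEAD proteins bind the letters GGAATG, or CATTCC on the other strand. RefSeq promoters (mouse GRCm38.p6, 250 bases before to 50 after each start site) were on hand for 7 of the 9 genes: Ankrd1, Ccn1, Amotl2, Lats2, Axl, Yap1 and Wwtr1. All 7 genes held the 6 letters on one strand or the other in at least 1 promoter, against 16.6% of all 27025 genes. By promoter, 8 of their 9 did, all but 1 of the 2 Lats2 promoters, against 14.66% of all 32851 promoters of the same length. The form with 1 more letter, GGAATGT on either strand, was present in 4 of the 7 genes, namely Ccn1, Amotl2, Axl and Yap1, against 4.47% of all genes, and in 4 of the 9 promoters, against 3.85% of all promoters. Every match to the longer form overlaps a match to the shorter one.

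The 250 bases before the start are shown for the genes with the highest differences between 60 and 0 min, Ankrd1 and Ccn1, and 30 bases around the match for 4 others, with the matching letters in capitals. All are written 5′ to 3′ on the strand of the gene.
Ankrd1, chr19:36119845-36120094, minus strand: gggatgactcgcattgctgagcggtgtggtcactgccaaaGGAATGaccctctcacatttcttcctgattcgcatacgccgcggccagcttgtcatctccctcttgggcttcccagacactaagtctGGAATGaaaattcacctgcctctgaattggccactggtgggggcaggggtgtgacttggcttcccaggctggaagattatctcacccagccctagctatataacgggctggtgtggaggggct
Ccn1, chr3:145649986-145650235, minus strand: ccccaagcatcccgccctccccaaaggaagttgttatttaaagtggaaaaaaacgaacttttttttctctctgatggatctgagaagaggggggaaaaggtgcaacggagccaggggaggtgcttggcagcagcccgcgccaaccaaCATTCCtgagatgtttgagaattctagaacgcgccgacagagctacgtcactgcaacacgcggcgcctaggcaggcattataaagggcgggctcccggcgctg
Axl, chr7:25788949-25788978, minus strand: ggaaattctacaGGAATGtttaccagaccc
Amotl2, chr9:102717727-102717756, plus strand: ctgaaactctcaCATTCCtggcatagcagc
Yap1, chr9:8004720-8004749, minus strand: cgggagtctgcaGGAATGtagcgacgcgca
Wwtr1, chr3:57576029-57576058, minus strand: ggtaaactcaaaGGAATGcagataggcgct

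The Ankrd1 promoter held 2 matches, which begin 210 and 123 bases upstream of the start, and the Ccn1 promoter held 1 that begins 103 bases upstream. In Amotl2 the match began 65 bases upstream of the start, in Axl 233, in Yap1 141 and in Wwtr1 136. In Lats2 it lay at base 5 of the transcript and is not printed. A match says which letters stand in the window, not that a TEAD protein was bound there.

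Each clamp time was measured once per day. Differences are therefore given first array by array, as differences in log2(intensity + 16) between kidneys of the same day, and then from limma's fit of clamp time and day, with 2 residual degrees of freedom. The fitted values carry ± SE and set each difference against what clamp time and day leave unexplained. That spread holds any change of the clamp difference between days, as well as variation between kidneys and between arrays. These parts cannot be told apart here, so the SE does not measure technical spread alone. Limma called 0 of 12734 genes (0%) at an adjusted p under 0.05 in each of the 5 fitted comparisons, and so 0 of the 9. The 9 genes are described below by size.

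The clearest pattern was in the 60 min kidneys. There 8 of the 9 genes, each read from its brightest probe set, were above the 0 min kidney on both days. So were 38.7% of all genes tested. Second probe sets of Yap1 and Tead1, given below, did not keep that sign on both days. Ankrd1 and Ccn1 were at least 2-fold higher on both days, a size reached by 3.04% of all genes. On day 3 taken alone Ccn2 and Axl reached it too (4 of 9, against 7.58% of all genes), and on day 1 taken alone 2 of 9 did, against 4.39%. None of the 9 was lower on both days, as 31.7% of all genes were. At an unadjusted p under 0.05, limma gave 4 of the 9 as higher at 60 than at 0 min (Ankrd1, Ccn1, Ccn2 and Axl) and 0 as lower, against 13.2% of all genes higher and 8.22% lower. The median of the 9 fitted differences was 0.46, against 0.034 for all genes tested.

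Ankrd1 encodes a nuclear and sarcomere-associated ankyrin repeat protein and is one of the most used readouts of YAP activity. It lies on chromosome 19 (36111965 to 36119844; GRCm38.p6, as for all gene positions here). At day 3 the Ankrd1 intensity was 76.3 in the 0 min kidney, 291 in the 45 min kidney and 1892 in the 60 min kidney, and at day 1 it was 71.0, 243 and 519 in the same order. The level went up with clamp time on both days, and all 4 clamped kidneys lay above both 0 min kidneys. The 0 min kidneys were close to each other and so were the 45 min kidneys, while at 60 min the day 3 kidney stood 3.65 times above the day 1 kidney.

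The Ankrd1 intensity at 60 min was 24.8 times that at 0 min on day 3 and 7.31 times on day 1. The 45 min kidneys were 3.81 times and 3.42 times above the 0 min kidneys of day 3 and day 1. In the fit, 60 min exceeded 0 min by 3.49 ± 0.45 on the log2(intensity + 16) scale (limma adjusted p = 0.0718), and only 4 of 12734 genes had a larger difference. This adjusted p ran from 0.0190 with a robust variance trend to 0.476 over the other settings, and it was under 0.05 in 6 of them, listed in the closing section. A second Ankrd1 probe set followed the same course, with log2 differences between 60 and 0 min of 3.67 on day 3 and 2.54 on day 1.

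Ankrd1 is also abundant in heart and skeletal muscle, so muscle markers were read on the same arrays. The summed intensity of 6 skeletal muscle markers was 357 on day 3 and 248 on day 1 in the 60 min kidneys, against 251 and 228 in the 0 min kidneys. The 4 heart muscle markers summed to 144 on day 3 and 103 on day 1 in the 60 min kidneys, against 116 and 89.2 in the 0 min kidneys. The markers of both tissues stayed dim: 3 of 6 skeletal and 0 of 4 heart muscle markers passed the filter, and the brightest single value was 110, for Acta1 in the 45 min kidney of day 1.

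**Figure D1:**
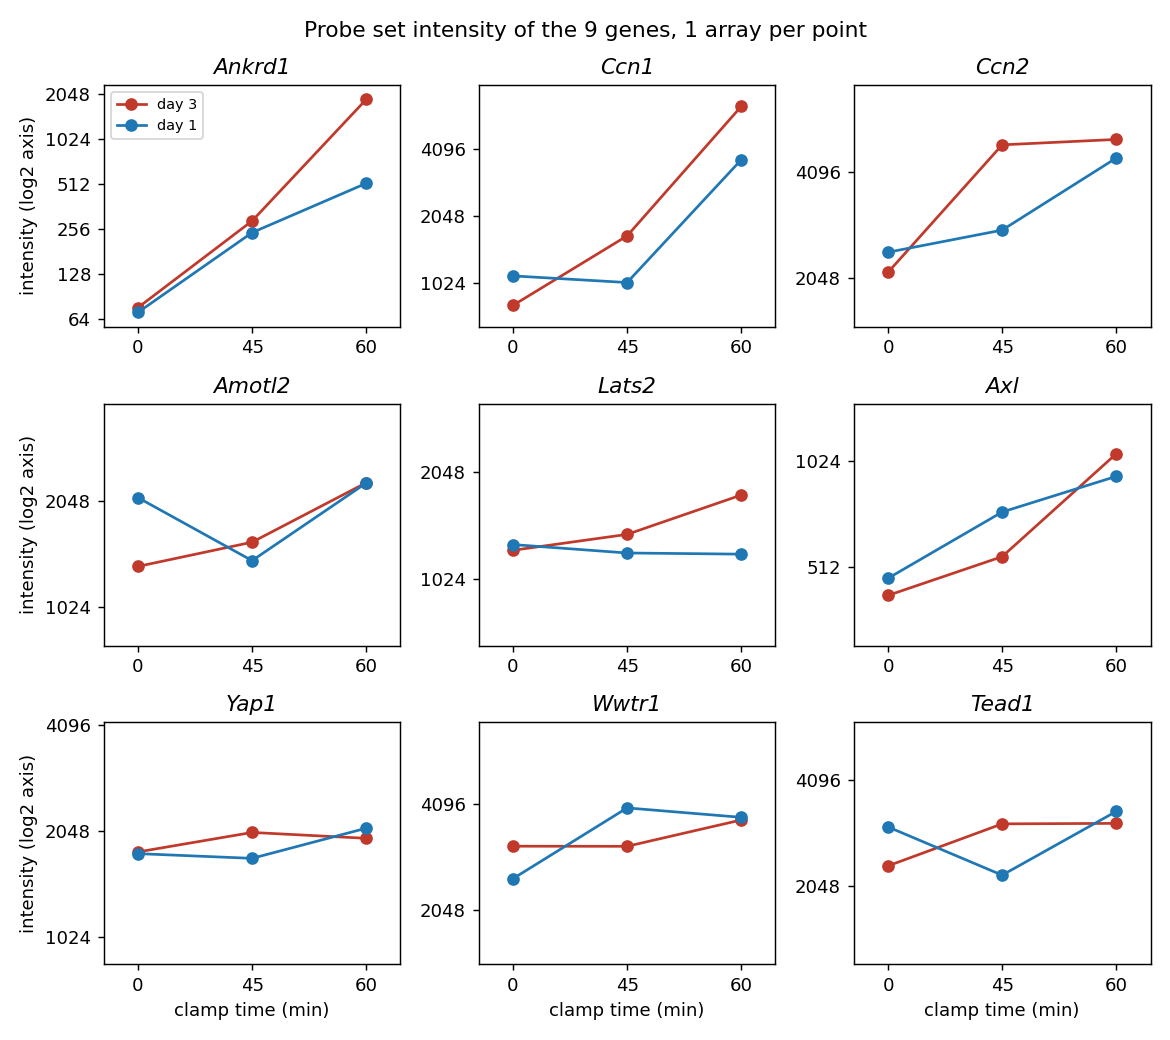
Intensity of the chosen probe set of each gene (vertical axis, log2 spacing, same units in every panel) against clamp time in minutes, with 1 point per array and a line for each day. Ankrd1 climbs from 0 to 45 to 60 min on both days, Ccn1 is highest at 60 min, Ccn2 at 45 min depends on the day, and Yap1 stays between 1712 and 2084.

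Ccn1 and Ccn2 encode secreted matricellular proteins of the CCN family, which bind integrins and matrix and are known from wound repair and fibrosis. Both are early and direct YAP and TEAD targets. Ccn1 lies on chromosome 3 (145646971 to 145649985). Ccn1 intensity at day 3 was 810 in the 0 min kidney, 1668 in the 45 min kidney and 6400 in the 60 min kidney, and at day 1 it was 1100, 1027 and 3676. The 60 min kidneys lay above the other 4 on both days, while at 45 min Ccn1 was above the 0 min kidney on day 3 and close to it on day 1.

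Ccn1 was 7.90 times higher at 60 than at 0 min on day 3 and 3.34 times higher on day 1 (fitted log2 difference 2.34 ± 0.34, limma adjusted p = 0.0770; 0.0245 to 0.505 over the other settings). Between 60 and 45 min Ccn1 differed by 3.84 times on day 3 and 3.58 times on day 1 (1.88 ± 0.34, limma adjusted p = 0.306). That ratio was smaller than the one between 60 and 0 min on day 3 and slightly larger on day 1. Only 5 of 12734 genes had a larger fitted difference between 60 and 45 min. The chosen Ccn1 probe set is of a type (x_at) whose probes can match other transcripts. The other 3 Ccn1 probe sets, 1 of which is of the same type, gave similar signs. Their log2 differences between 60 and 0 min were 1.72 to 2.69 on day 3 and 1.63 to 1.96 on day 1.

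At 45 min the Ccn1 probe sets disagreed. The 2 brighter ones were higher than at 0 min on day 3 (1.03 and 0.54) and near 0 on day 1 (-0.10 and 0.06). The 2 dimmer ones, designed on one and the same transcript sequence, were near 0 on day 3 (-0.04 and 0.19) and higher on day 1 (1.09 and 1.01). The day on which the 45 min kidney differed in Ccn1 thus turned with the probe set, whereas the 60 min difference did not.

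Ccn2 lies on chromosome 10 (24595442 to 24598683) and encodes connective tissue growth factor. Day 3 intensities of Ccn2 were 2128 in the 0 min kidney, 4886 in the 45 min kidney and 5061 in the 60 min kidney, and at day 1 they were 2426, 2803 and 4484. All 4 clamped kidneys lay above both 0 min kidneys. On day 3 the 45 min kidney stood at nearly the level of the 60 min kidney, and on day 1 it stood nearer to the 0 min kidney.

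Between 60 and 0 min Ccn2 differed by 2.38 times on day 3 and 1.85 times on day 1 (1.06 ± 0.26, limma adjusted p = 0.135). Between 60 and 45 min it differed by 1.04 times on day 3 and 1.60 times on day 1 (0.36 ± 0.26, limma adjusted p = 0.577). Without the 45 min day 1 array, the fitted difference between 60 and 45 min turned to -0.040. A single probe set represented Ccn2, so these values have no second reading.

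Axl encodes a receptor tyrosine kinase of the TAM family, which binds the ligand GAS6 and takes part in the uptake of dying cells. It lies on chromosome 7 (25756500 to 25788924). For Axl, intensity at day 3 was 425 in the 0 min kidney, 548 in the 45 min kidney and 1071 in the 60 min kidney, and at day 1 it was 476, 732 and 924. Axl went up with clamp time on both days. As for Ankrd1, all 4 clamped kidneys lay above both 0 min kidneys (10.9% of all genes). Both 60 min kidneys lay above the other 4, again as for Ankrd1 (18% of all genes).

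The Axl intensity at 60 min was 2.52 times that at 0 min on day 3 and 1.94 times on day 1 (1.12 ± 0.20, limma adjusted p = 0.0899; 0.0243 to 0.535 over the other settings). A second Axl probe set was near background, with a mean intensity of 21.6, and averaging over both lowered the fitted difference to 0.63. The other TAM receptor genes, Tyro3 and Mertk, had fitted differences of 0.53 ± 0.34 and -0.36 ± 0.17, and Gas6 one of -0.03 ± 0.16. Limma called 0 of these 3 genes at an adjusted p under 0.05, as it did 0 of all 12734 genes, Axl included.

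Amotl2 and Lats2 are targets that feed back on the pathway: the angiomotin-like protein AMOTL2 binds YAP and TAZ, and LATS2 phosphorylates them. Amotl2 lies on chromosome 9 (102717091 to 102733418). Amotl2 intensity at day 3 was 1338 in the 0 min kidney, 1567 in the 45 min kidney and 2308 in the 60 min kidney, and at day 1 it was 2095, 1389 and 2304. The 60 min kidneys were nearly equal and lay above the other 4, but the 0 min kidneys differed from each other by more than most clamped kidneys did.

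The 60 min difference of Amotl2 from 0 min was therefore 1.73 times on day 3 and 1.10 times on day 1 (0.46 ± 0.24, limma adjusted p = 0.333). Against the 45 min kidneys it was 1.47 times and 1.66 times on the same days (0.64 ± 0.24, limma adjusted p = 0.377). At 45 min Amotl2 was 1.17 times the 0 min level on day 3 and 0.66 times on day 1, so the sign differed between days.

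Lats2 lies on chromosome 14 (57689662 to 57746212). Lats2 intensity at day 3 was 1232 in the 0 min kidney, 1367 in the 45 min kidney and 1767 in the 60 min kidney, and at day 1 it was 1279, 1211 and 1202. The day 3 values went up with clamp time and the day 1 values lay within a narrow range. The fitted difference between 60 and 0 min was 0.21 ± 0.20 (limma adjusted p = 0.573) and turned to -0.032 without the 60 min day 3 array.

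Of the 6 Lats2 probe sets, 4 had a mean intensity under 200 and 2 of these lay near background. The second brightest had a log2 difference between 60 and 0 min of 0.68 on day 3 and -0.03 on day 1, close to the 0.51 and -0.089 of the brightest.

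**Figure D2:**
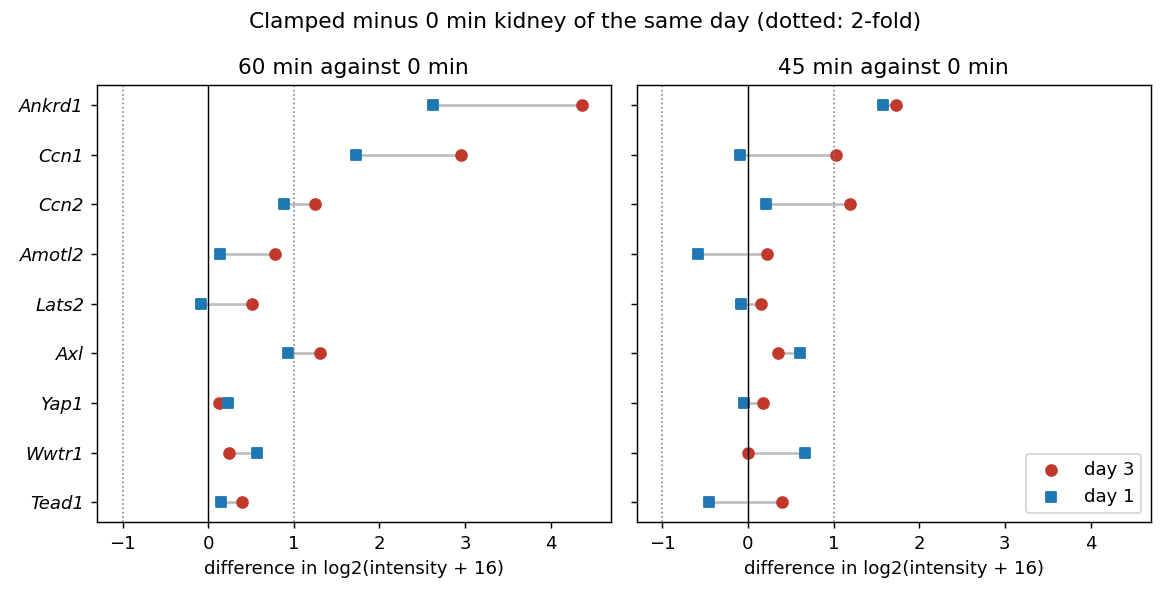
Difference in log2(intensity + 16) between a clamped kidney and the 0 min kidney of the same day, for 60 min (left) and 45 min (right), with day 3 as circles, day 1 as squares and dotted lines at 2-fold. At 60 min Ankrd1 and Ccn1 lie past 2-fold on both days and Ccn2 and Axl on day 3, while at 45 min Ankrd1 alone lies past 2-fold on both days.

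Yap1, Wwtr1 and Tead1 are the genes of the coactivators and of a DNA-binding partner. Yap1 lies on chromosome 9 (7931999 to 8004638). Yap1 intensity at day 3 was 1785 in the 0 min kidney, 2027 in the 45 min kidney and 1951 in the 60 min kidney, and at day 1 it was 1765, 1712 and 2084. By the brightest probe set, the highest Yap1 value was 1.22 times the lowest, the narrowest span of the 9 genes, and the groups overlapped. The fitted difference between 60 and 0 min was 0.18 ± 0.16 (limma adjusted p = 0.555). A second Yap1 probe set, with a mean intensity of 223, ran from 159 to 290. Its log2 differences between 60 and 0 min were 0.41 on day 3 and -0.07 on day 1.

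Wwtr1, the gene of TAZ, lies on chromosome 3 (57455644 to 57575910). Wwtr1 intensity at day 3 was 3114 in the 0 min kidney, 3111 in the 45 min kidney and 3694 in the 60 min kidney, and at day 1 it was 2520, 3996 and 3758. The highest value was thus in the 45 min kidney of day 1 and the lowest in the 0 min kidney of that day. The fitted differences were 0.41 ± 0.20 for 60 against 0 min and 0.33 ± 0.20 for 45 against 0 min (limma adjusted p = 0.319 and 0.872). The 3 Wwtr1 probe sets were each higher at 60 than at 0 min on both days, by 0.25 to 0.44 on day 3 and 0.57 to 0.65 on day 1 in log2.

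Tead1 lies on chromosome 7 (112679356 to 112906784). Tead1 intensity at day 3 was 2336 in the 0 min kidney, 3073 in the 45 min kidney and 3083 in the 60 min kidney, and at day 1 it was 3012, 2199 and 3333. The 45 min kidney was thus above the 0 min kidney on day 3 and below it on day 1. The fitted difference between 60 and 0 min was 0.27 ± 0.24 (limma adjusted p = 0.556) and turned to -0.0027 without the 0 min day 3 array. A second Tead1 probe set was dim, with a mean intensity of 71.7. Its log2 differences between 60 and 0 min were -0.13 on day 3 and 0.026 on day 1. Averaging over both probe sets lowered the fitted difference to 0.11.

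**Figure D3:**
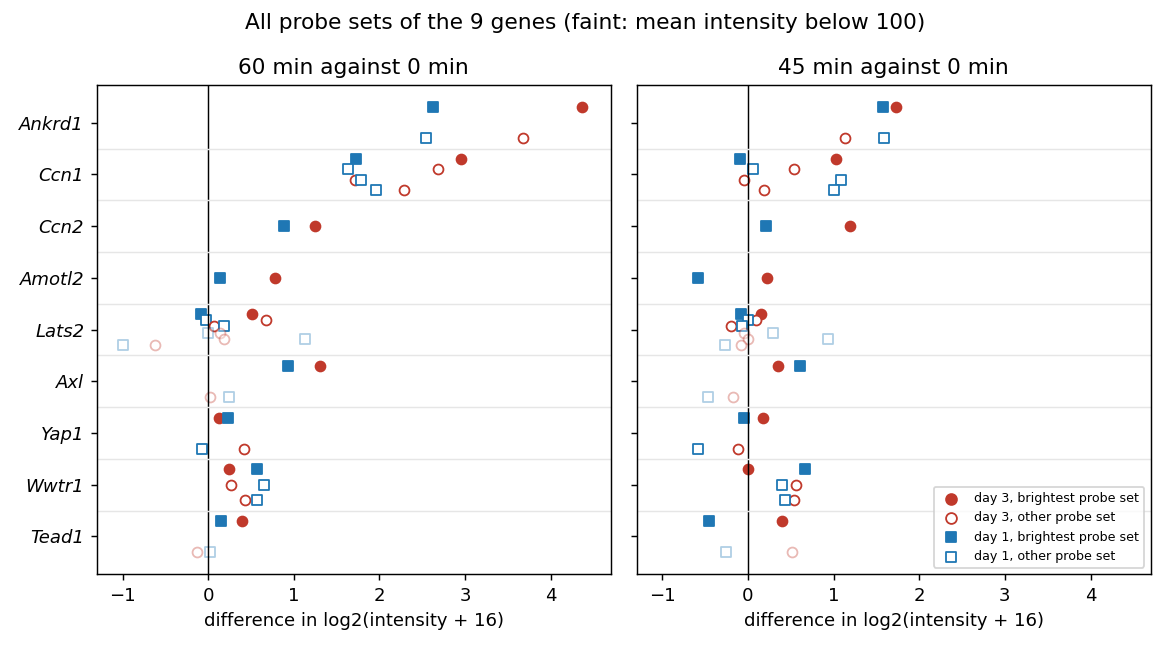
Difference in log2(intensity + 16) from the day-matched 0 min kidney for all 23 probe sets of the 9 genes, at 60 min (left) and 45 min (right), with filled symbols for the brightest probe set of each gene and faint ones for a mean intensity below 100. The Ankrd1 and Ccn1 probe sets agree in sign at 60 min on both days, while those of Ccn1 differ at 45 min.

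The 45 min clamp gave a smaller set of differences. Of the 9 genes, Ankrd1, Ccn2 and Axl were above the 0 min kidney on both days (24.2% of all genes were), and Ankrd1 alone was at least 2-fold higher on both, as were 0.275% of all genes. The fitted difference between 45 and 0 min was 1.65 ± 0.45 for Ankrd1 (limma adjusted p = 0.803), 0.70 ± 0.26 for Ccn2 (0.845), 0.48 ± 0.20 for Axl (0.845) and 0.46 ± 0.34 for Ccn1 (0.880). The Ccn1 value turned to -0.12 without the 0 min day 3 array. At an unadjusted p under 0.05 limma gave Ankrd1 and Ccn2 as higher, against 3.84% of all genes higher, and 0 of the 9 as lower, against 1.97%. The comparisons of 60 and of 45 min share the 0 min arrays, so their likeness is no separate evidence.

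Set against the 45 min kidneys, the 60 min kidneys had more of 6 of the 9 genes on both days (Ankrd1, Ccn1, Ccn2, Amotl2, Axl and Tead1; 35.4% of all genes) and less of 0 on both (27% of all genes). At an unadjusted p under 0.05 limma gave Ankrd1, Ccn1, Amotl2 and Axl as higher (7.76% of all genes) and 0 of the 9 as lower (5.29%). The fitted difference of Ankrd1 was 1.84 ± 0.45 (limma adjusted p = 0.316). Ankrd1 and Ccn1 were at least 2-fold higher on both days, which held for 0.33% of all genes. For Ankrd1 the day 1 difference lay just past that size (1.05 on the log2 scale, and 0.95 in its second probe set), and it fell short of it with a pseudocount of 64 and with the mean of both probe sets. Both 60 min arrays lay above the other 4 for 5 of the 9 genes, and for 18% of all genes. All 4 clamped arrays lay above both 0 min arrays for 3 of the 9, and for 10.9% of all genes.

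Days were compared over the 3 clamp times. The fitted day 3 against day 1 difference ran from -0.16 ± 0.19 for Amotl2 to 0.72 ± 0.37 for Ankrd1, and at an unadjusted p under 0.05 limma gave 0 of the 9 in either direction (3.59% of all genes higher and 5.47% lower). The clamp difference was higher on day 3 than on day 1 by 1.18 ± 1.5 for Ccn1 and 0.95 ± 1.60 for Ankrd1 (limma adjusted p above 0.999 for both). That fit pools the 2 clamp times of a day, so what sets 60 min apart from 45 min enters the SE. The Ankrd1 value turned to -0.37 without the 60 min day 3 array, the array that holds the highest Ankrd1 level. The Ccn1 value was 0.28 with the mean of probe sets and ran from 0.21 without the 60 min day 3 array to 2.14 without the 45 min day 3 array.

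Over the 6 arrays, log2 levels of Ankrd1 correlated with those of Ccn1 at r = 0.93, of Axl at 0.93 and of Ccn2 at 0.86. Those of Tead1 correlated with Amotl2 at 0.84 and with Wwtr1 at -0.19. Only 6 points that share clamp time and day stand behind each value, which is given as a description. Among 2799 other genes that ranged over at least 1 log2 unit, 146 had r of at least 0.95 with Ankrd1, 49 with Ccn1 and 9 with Ccn2, so the nearest genes are nearest among many for Ankrd1 and Ccn1.

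The 4 genes most like Ankrd1 by Pearson's r over the 6 arrays were Inpp5d, Anxa1, Cmtm3 and Rab31 (r of 0.996 to 0.999). Anxa1, which encodes the phospholipid-binding protein annexin A1, had intensities of 1213, 1901 and 4034 at 0, 45 and 60 min of day 3 and of 1225, 1937 and 2449 on day 1. Those most like Ccn1 were Fosl1, Samd4, Tedc1 and Dusp10 (0.985 to 0.993). Fosl1, which encodes the AP-1 transcription factor FRA1, had 30.04, 68.0 and 258 on day 3 and 57.3, 42.0 and 171 on day 1. Like Ccn1, to which it was matched by r, it was below or near the 0 min level at 45 min of day 1.

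Those most like Ccn2 were Cebpb, Cxcl1, Hspb1 and Cebpd (0.982 to 0.997). Cebpb, which encodes a transcription factor of the acute phase response, had 1851, 4047 and 4110 on day 3 and 2227, 2363 and 3623 on day 1. The neutrophil chemokine gene Cxcl1 had 183, 1723 and 2255 on day 3 and 248, 356 and 1759 on day 1. Like Ccn2, to which they were matched by r, both had a 45 min day 3 level near that of the 60 min kidneys. Their 45 min day 1 level was near that of the 0 min kidneys.

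A wider list of 16 target genes, the remainder of a published YAP signature from cancer cells, was read beside the 9. Of 15 that passed the filter, 9 were above and 3 below the 0 min kidney on both days at 60 min, against 38.7% and 31.7% of all genes tested, and Myof alone was at least 2-fold higher on both, against 3.04%. Limma called 0 of the 15 at an adjusted p under 0.05, and 0% of all genes tested. The median fitted difference between 60 and 0 min was 0.49, against 0.034 for all genes tested. Read from the brightest probe set, the largest were Myof, for the membrane repair protein myoferlin (2.37 ± 0.32), F3, for tissue factor, which starts coagulation (1.33 ± 0.27), Ccdc80 (1.22 ± 0.40) and the stress-response gene Gadd45a (0.77 ± 0.14). With the mean of probe sets Myof was at 1.16, below Ccdc80 at 1.52 and F3 at 1.33. Ccdc80 differed by 1.92 on day 3 and 0.52 on day 1, and leaving out the 60 min kidney of day 3 gave a fitted difference of 0.48, and leaving out that of day 1 gave 1.95.

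Myof had intensities of 200, 325 and 1035 at 0, 45 and 60 min of day 3 and of 146, 572 and 875 on day 1, and thus went up with clamp time on both days as Ankrd1 and Axl did. F3 had 649, 1002 and 2394 on day 3 and 875, 947 and 1544 on day 1, with its highest values at 60 min as for Ccn1. Nt5e went the other way on day 1, with 1820 at 60 min against 3685 at 0 min, and had 2118 against 2392 on day 3.

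Of 22 Hippo kinases and regulators 21 passed the filter, with a median fitted difference between 60 and 0 min of 0.28. Limma called 0 of the 21 at an adjusted p under 0.05 (0% of all genes tested). Of the 21, 13 were above and 3 below the 0 min kidney on both days (38.7% and 31.7% of all genes). Map4k4 alone was at least 2-fold higher on both, a share near the 3.04% of all genes. Map4k4, for a kinase that acts on LATS kinases, differed by 1.04 ± 0.29, and by 0.66 with the mean of its probe sets. Ajuba, for a LIM protein that binds and restrains LATS kinases, differed by 0.82 ± 0.25. The atypical cadherin genes Dchs1 and Fat4 differed by 0.76 ± 0.17 and 0.72 ± 0.36. Fat4 differed by 1.16 on day 3 and 0.29 on day 1, and leaving out the 60 min kidney of day 3 gave a fitted difference of 0.14, and leaving out that of day 1 gave 1.31. Ajuba had intensities of 1066, 730 and 2422 at 0, 45 and 60 min of day 3 and of 1080, 850 and 1511 on day 1, and so was lowest at 45 min on both days.

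Of the other TEAD genes, Tead2 had a fitted difference of 0.77 ± 0.40 and Tead3 of -0.01 ± 0.15, and Tead4 lay below the filter. Tead2 differed by 1.11 on day 3 and 0.43 on day 1, and leaving out the 60 min kidney of day 3 gave a fitted difference of 0.18, and leaving out that of day 1 gave 1.35. Among the other CCN genes, Ccn4 had intensities of 133, 135 and 369 at 0, 45 and 60 min of day 3 and of 112, 303 and 414 on day 1 (1.56 ± 0.33). Ccn3 and Ccn5 differed by 0.36 ± 0.28 and 0.21 ± 0.17, and Ccn6 lay below the filter. Limma called 0 of these 5 genes at an adjusted p under 0.05 (0% of all genes tested). Ccn4, like Ankrd1 and Ccn1, was at least 2-fold higher at 60 than at 0 min on both days.

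**Figure D4:**
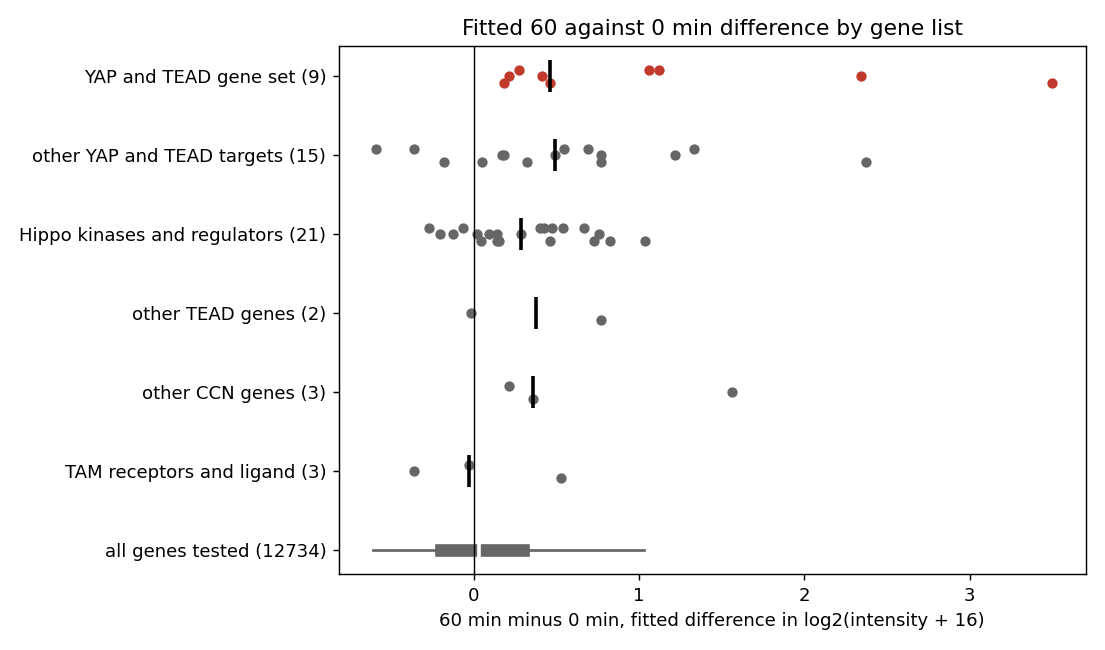
Fitted difference between 60 and 0 min in log2(intensity + 16) for each gene that passed the filter, by gene list, with the number of genes in brackets, black ticks at list medians, and for all 12734 genes a thick bar over the middle 50% (white gap at the median) and a thin line from the 5th to the 95th percentile (-0.61 to 1.03). Ankrd1 (3.49), Ccn1 (2.34), Axl (1.12) and Ccn2 (1.06) lie past the 95th percentile and the other 5 genes of the set inside it.

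Cell type markers differed between clamp times on the same arrays. Whole kidney was measured, so fewer cells of a type and less RNA per cell cannot be told apart. Of 7 injured tubule markers 5 passed the filter. All 5 were at least 2-fold higher at 60 than at 0 min on both days (3.04% of all genes). They were also higher at 60 than at 45 min on both days (35.4% of all genes). Spp1 was not among the genes read, and Sox9 lay below the filter. Sox9 differed between 60 and 0 min by 2.25 on day 3 and 0.24 on day 1 in log2. The summed intensity of the list was 44126 on day 3 and 49692 on day 1 in the 60 min kidneys, against 7909 and 9604 in the 0 min kidneys. Of 8 proximal tubule markers 7 were lower at 60 min on both days (31.7% of all genes), with sums of 77872 and 71587, against 110100 and 100804.

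Of 8 fibroblast and myofibroblast markers 5 were at least 2-fold higher at 60 min on both days (3.04% of all genes). Their list summed to 43243 on day 3 and 25697 on day 1 in the 60 min kidneys, against 15717 and 10008 in the 0 min kidneys. Dcn and Lum lay below the 0 min kidney on day 1, by log2 differences of -0.54 and -0.18. Of 8 monocyte and macrophage markers 3 were at least 2-fold higher on both days, with sums of 31302 and 8161, against 8674 and 4826. Csf1r and Itgam lay below the 0 min kidney on day 1, by -0.33 and -0.18. Lyz2 alone held 17100 of the macrophage sum in the 60 min kidney of day 3. The macrophage and the fibroblast and myofibroblast sums were both highest in that kidney, as were the smooth, skeletal and heart muscle sums. The Ankrd1, Ccn1, Ccn2, Amotl2, Lats2 and Axl levels were highest there too.

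Of the markers for other cells, 1 of 3 smooth muscle markers that passed the filter was at least 2-fold higher on both days (3.04% of all genes). The smooth muscle sums were 4856 on day 3 and 3794 on day 1 in the 60 min kidneys, against 1468 and 1073 in the 0 min kidneys. Of 6 endothelial and 4 podocyte markers 0 were at least 2-fold higher on both days. Of 6 loop and distal tubule markers 6 were lower on both days (31.7% of all genes). No marker of these lists was at 0 on any array. RNA quality was read from the log2 ratio of the beta-actin control probe sets at the 3′ and 5′ ends of the transcript, which was 0.49 on the 60 min day 3 array, 0.77 on the 0 min day 3 array and 1.03 to 1.12 on the other 4. The same ratio for Gapdh did not set the 60 min day 3 array apart, at -0.37 there, against -0.37 at 0 min and -0.33 at 45 min of that day and -0.23 to -0.20 over the day 1 arrays. The part of cell makeup and of RNA quality in the values of the 9 genes was not tested.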

How the data were processed

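Files held linear probe set intensities, which the authors deposited after Affymetrix Expression Console (per the submitters' processing notes). Neither the software version nor the method that summarised probes is given in the sources used here. Without its lowest and highest 2% of values, every array averaged 500.003, so the arrays had been scaled alike. Of 45101 probe sets, 34945 had 1 gene symbol in the platform annotation, 932 had several and 9160 had none, beside 64 controls. Of those with 1 symbol, 34741 matched a RefSeq gene identifier.

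Values were taken as log2(intensity + 16), which shrinks differences of dim genes. Each gene was read from its single-symbol probe set of highest mean intensity, and genes with a mean under the 40th percentile of probe sets (log2 6.01) were left out. Limma 3.58.1 in R 4.3.3 fitted clamp time plus day, and 4 cells (0 min or clamped, by day) for the change between days, with Benjamini-Hochberg adjustment over 12734 genes. The code was tested on simulated data.

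The 9 genes, lists and settings were chosen with earlier results of these data known. By rule the text names the 9, up to 4 genes per list with the largest absolute difference between 60 and 0 min, and the 4 genes most correlated with Ankrd1, Ccn1 and Ccn2 (predicted genes passed over). Nt5e, Acta1, Dcn, Lum, Csf1r and Itgam were named after their values were seen. Some listed genes without a fitted value are also named. Alternatives were quantile normalization, median centring, pseudocounts of 1 and 64, dropping the filter or raising it to the 60th percentile, averaging probe sets, a robust variance trend, and leaving out each array. The number of arrays limits the precision.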

Additional observations from a re-analysis of the deposited data

Results flagged for a closer look

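Lats2 was singled out because its clamp difference had opposite signs on the 2 days in both clamped kidneys. On day 3 the 60 min and 45 min kidneys lay above the 0 min kidney by 0.51 and 0.15 on the log2(intensity + 16) scale, and on day 1 the same differences were -0.089 and -0.078. The day 1 differences are small, each group is 1 array, and this split by day was not tested beyond the fitted change of the clamp difference between days (0.41 ± 0.36, limma adjusted p above 0.999), which turned to -0.011 with the mean of all 6 Lats2 probe sets.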

How the results depend on the processing

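The number of genes called by limma at an adjusted p under 0.05 depended on the settings for 60 against 0 min. The count of 0 became 135 with median centring, 277 with a pseudocount of 64, 202 with the filter at the 60th percentile, 20 with the mean of probe sets and 615 with a robust variance trend. It ran from 0 to 450 when 1 array was left out, with 450 without either 45 min array. Ankrd1 and Ccn1 were among the calls in all of these but the mean of probe sets, and Axl with the robust variance trend alone. For day 3 against day 1 the count became 4 with a robust variance trend and ran from 0 to 1 with 1 array left out, and for 45 against 0 min it ran from 0 to 3. The number of the 9 genes at least 2-fold higher at 60 than at 45 min on both days was 1 (Ccn1) with a pseudocount of 64 and with the mean of probe sets. The cause of these changes was not tested. Leaving out either 45 min array gives the same fit between 60 and 0 min, because the remaining one is fitted exactly. These settings are therefore not separate results for 60 against 0 min, here or in the counts of settings per gene.

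Of 532 values under other settings of the single-gene differences given in the text, 493 kept their sign and side of the threshold, 26 passed the threshold (all for 60 against 0 min, 6 each for Ankrd1, Ccn1 and Myof, 3 for Ccn4, 2 for Map4k4 and 1 each for Axl, F3 and Gadd45a) and 13 changed sign. Fitted differences that changed sign with 1 array left out ran from -0.032 to 0.46 for Lats2, from -0.0027 to 0.55 for Tead1, from -0.15 to 0.092 for Gas6, from -0.086 to 0.056 for Tead3 and from -0.054 to 1.11 for Tyro3 between 60 and 0 min. They ran from -0.12 to 1.05 for Ccn1 between 45 and 0 min, from -0.040 to 0.77 for Ccn2 between 60 and 45 min, from -0.32 to 0.087 for Amotl2 between days, and from -0.37 to 2.27 for the change of the Ankrd1 clamp difference between days. Gas6 was 0.11 with quantile normalization, and the change of the Lats2 clamp difference was -0.011 with the mean of probe sets. Without a 0 min array that change could not be fitted. Of 39 fitted differences given in the text, 27 moved by over 1.5 times or changed sign with at least 1 array left out. The other 12 were Ankrd1, Ccn1, Ccn2, Axl, Myof, F3, Gadd45a, Map4k4, Dchs1 and Ccn4 between 60 and 0 min, Ankrd1 between 45 and 0 min and Ccn1 between 60 and 45 min. Arrays of the same day were paired through the day term and the differences within a day.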
